A study of Mus musculus with 4 samples.

Results

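The genes described here are 7 neighbours of Glo1 on mouse chromosome 17: Pim1, Rnf8, Mdga1, Zfand3, Btbd9, Glp1r and Abcg1. They are a listed choice among the genes within about 1.5 Mb of Glo1, where 53 other genes or transcripts were measured on all arrays, and no threshold on their values was used. The arrays carried 14 probes for these 7 genes, out of 56605 probes and 36693 gene or transcript names in all. Of these, 13 probes of 6 genes were well above background on all 4 arrays, the exception being the single probe of Glp1r.

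RNA came from prefrontal cortex, taken from B6J mice at an age of 3 months. The 4 groups were wild types on a starch diet, wild types on a sucrose diet, Glo1 heterozygotes on starch and Glo1 heterozygotes on sucrose, each diet lasting about 70 days and starting at weaning (postnatal day 21). Glo1 encodes glyoxalase 1, an enzyme that detoxifies methylglyoxal. Each group was 1 RNA pool of 3 mice on 1 one-colour Agilent array, so there was no replicate and a difference between arrays carries no error between animals. How the Glo1 allele was made is not given in the sources used here.

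As background, a mouse that carries a targeted allele can also carry, linked to it, a stretch of the chromosome on which the allele was made. Genes next to a targeted gene are therefore commonly inspected beside it. The 7 neighbours have no common function. Pim1 is a growth-promoting serine/threonine kinase, and Rnf8 a ubiquitin ligase that marks DNA double-strand breaks. Mdga1 is a membrane-anchored immunoglobulin-family protein that binds neuroligin-2 and restrains the formation of inhibitory synapses. Zfand3 is a zinc finger protein, and Btbd9 a BTB-domain adaptor linked to restless legs syndrome. Glp1r is the receptor of glucagon-like peptide 1, and Abcg1 exports cholesterol from cells.

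The probes are 60-base oligonucleotides, and a gene's probes read different stretches of its transcript. The following are shown because probes of the same gene gave different changes, and the single Glp1r probe because it was not well above background on 1 array. They were not placed in coding or untranslated sequence by annotation, and the part of their position in the results was not tested. For Mdga1, Btbd9 and Zfand3 the probe with the strongest signal held a polyadenylation signal, AATAAA or ATTAAA on the probe's own strand, shown in capitals within 30 bases. Of all 56605 probes, 13.4% held one of these motifs.
Mdga1 A_55_P2184339: gttgttccaatcAATAAAgatgcagtgttc
Btbd9 A_55_P1968553: gctcaccatagaAATAAAgcagtgtcttcg
Zfand3 A_55_P2797956: ccattgtataaaATTAAAacatgaagaatg
The 4 probes printed next in full held no such motif. Each had at least 1 reading frame without a stop codon over its whole length, as did the Btbd9 and Zfand3 probes above but not the Mdga1 one. Probes not printed, such as those of Pim1 and Btbd9 A_55_P2040534, had such a frame too. The share over all probes was not counted. They are in lower case throughout.
Mdga1 A_51_P403193: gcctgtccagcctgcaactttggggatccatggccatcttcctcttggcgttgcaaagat
Btbd9 A_55_P2040539: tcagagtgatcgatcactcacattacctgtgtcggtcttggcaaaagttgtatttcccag
Rnf8 A_52_P580483: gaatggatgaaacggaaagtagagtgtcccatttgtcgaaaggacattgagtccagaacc
Glp1r A_51_P275077: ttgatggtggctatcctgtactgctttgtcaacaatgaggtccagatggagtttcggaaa
The Glp1r probe is placed at chr17:31069561-31073230 in the files (build mm9, plus strand). That span of 3670 bases is longer than the probe, so the probe crosses an intron. Coordinates below are those of the files on mm9.

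All levels below are processed signals as multiples of the array's 75th percentile, and all changes are log2 differences of these levels. The ± after a level or a change is the spot error of the scanner software, which covers a single spot and not the difference between mice. For a probe of middle or high signal it came to 0.20 for a pair of arrays. Probes printed repeatedly on the same array varied less. For a pair of arrays their SD was 0.07 in the quartile of probes with the highest signal (296 probes). It was 0.11 in the quartile below it (7 probes). A change within the spot error can therefore still exceed the spread of repeated spots. The 75th percentiles lay between 1780 and 1929 intensity units, between 77.6% and 80.2% of spots were well above background, and no spot was saturated.

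Glo1 itself, measured by 3 probes between chr17:30729951 and 30731142, went with the labels. Its probe with the strongest signal (A_51_P480982) read 4.04 and 5.53 in wild types fed starch or sucrose, and 2.74 and 3.04 in heterozygotes. The genotype change was -0.56 ± 0.20 on starch and -0.86 ± 0.20 on sucrose. This is the scale against which the neighbours are set.

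No neighbour was lower in heterozygotes by the size seen for Glo1 on both diets. By each gene's probe with the strongest signal, none of the 6 neighbours measured on all arrays differed by 2-fold or more between genotypes on starch. Of all 26864 genes, 0.916% did. On sucrose 1 of 6 did, Mdga1, where 1.57% of all genes did. Another Btbd9 probe, dim and described below, changed by -1.08 on starch. The median genotype change of the 6 was 0.03 on starch and 0.05 on sucrose, beside -0.03 and -0.02 over all genes. The 2 genotype comparisons share no array, but no direction was common to the neighbours in either: 4 of 6 were higher in heterozygotes on starch and 3 of 6 on sucrose. With the mean over a gene's probes in place of the strongest one, Btbd9 and Rnf8 lay below 0 on starch (-0.36 and -0.11). Over all 26864 genes, 14922 lay below 0 on starch and 14771 on sucrose.

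**Figure D1:**
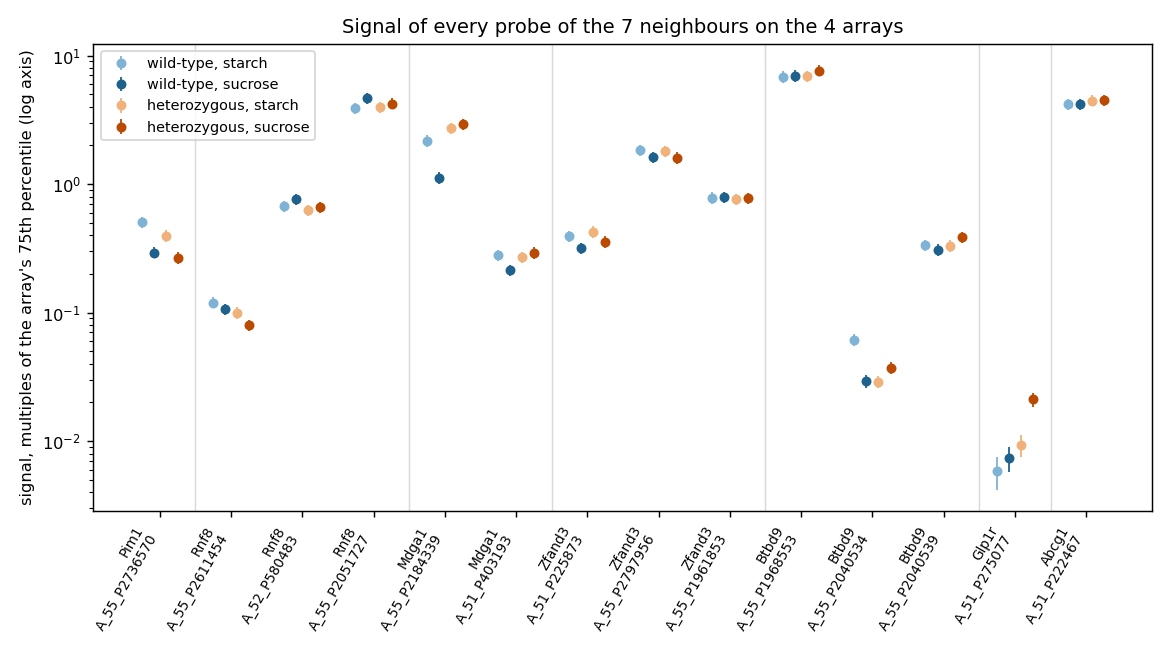
Signal of all 14 probes of the 7 neighbours on the 4 arrays, in chromosomal order, as multiples of the array's 75th percentile on a log axis; bars are the spot error of the scanner software. The Mdga1 probe A_55_P2184339 is low on the wild-type sucrose array (1.12), Pim1 is low on both sucrose arrays, and Glp1r is highest on the heterozygous sucrose array (0.0211).

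Mdga1 had the widest span over the arrays of the 6 measured genes, each taken by its probe with the strongest signal. Its probe with the AATAAA motif (A_55_P2184339, chr17:29964904-29964963, minus strand, 765 kb from the Glo1 probes) read 2.18 ± 0.22 in wild types on starch and 1.12 ± 0.11 on sucrose. In heterozygotes it read 2.71 ± 0.27 on starch and 2.92 ± 0.29 on sucrose. The wild-type sucrose array was thus the low one, and both heterozygous arrays lay above both wild-type arrays. The level on heterozygous sucrose exceeded that on heterozygous starch by 0.11 ± 0.20, which is within the spot error.

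On sucrose Mdga1 was 2.61-fold higher in heterozygotes than in wild types, a change of 1.39 ± 0.20. Among the 10524 probes of the highest quartile of signal, no other probe changed by as much in that comparison. On starch the change was 0.32 ± 0.20, a size that 4.88% of those probes reached. In wild types the sucrose level was 51.4% of the starch level (-0.96 ± 0.20), which 0.266% of the probes reached.

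The Mdga1 probe with open reading frames (A_51_P403193, chr17:29969255-29969314) gave smaller changes. It read 0.278 on wild-type starch, 0.214 on wild-type sucrose, 0.270 on heterozygous starch and 0.292 on heterozygous sucrose. The wild-type sucrose array was again lowest. The genotype change on sucrose was 0.45 ± 0.20, 1.37-fold, and the change on starch was -0.04 ± 0.20. Averaged over both probes, the change on sucrose was 0.92 and no longer past 2-fold, so the call of Mdga1 rests on 1 spot per array.

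Markers of cortical excitatory neurons were read beside the labelled tissue. Being measured does not check the label, since markers of striatum and choroid plexus were measured too. All 8 of 8 cortical markers, among them Slc17a7, Tbr1 and Cux2, were measured. Their summed levels were 63.0 and 86.3 in wild types fed starch or sucrose, and 79.2 and 81.5 in heterozygotes. On wild-type sucrose all 8 were higher than on wild-type starch, with a median of 0.27. Striatal markers, with 10 of 11 measured, summed to 34.1 and 56.1 on wild-type starch and sucrose and to 52.3 and 29.3 on heterozygous starch and sucrose. On sucrose all 10 were lower in heterozygotes, with a median of -1.26. Of the 10, 7 were past 2-fold (70%), beside 1.57% of all genes. On starch 9 of the 10 were higher in heterozygotes, with a median of 0.83. Astrocyte markers summed to 32.0, 28.6, 31.3 and 29.5 over 5 of 5 genes in the same order of arrays. All 5 were lower on wild-type sucrose than on wild-type starch. Among them Gfap, an intermediate filament of astrocytes, named singly after its values were seen, read 2.05, 1.29, 2.24 and 2.86. Like Mdga1 it was lowest on wild-type sucrose, with a genotype change of 1.15 on sucrose and an interaction of 1.03. The other 4 astrocyte markers changed less between genotypes on sucrose, by 0.17 for Aqp4, 0.17 for Gja1, -0.01 for Slc1a3 and -0.18 for Aldh1l1. The part of these markers in the Mdga1 difference was not tested. Mdga2, the paralogue of Mdga1, changed by 0.17 with sucrose in wild types, the opposite direction to Mdga1, and by -0.06 between genotypes on sucrose. Nlgn2, the neuroligin that Mdga1 binds, differed by -0.15 between genotypes on sucrose.

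The genes whose 4 values were most like those of Mdga1, by Euclidean distance of centred log2 values among 855 genes with at least 0.8 times its span, were BB437157 (0.09), AK045156 (0.15) and Cxcl5 (0.16). The first and second lay in the lowest quartile of signal, with levels under 0.02. This likeness rests on 4 values for each gene.

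Pim1 was lower on both sucrose arrays than on both starch arrays. Its probe (A_55_P2736570, chr17:29632331-29632390, 1098 kb from the Glo1 probes) read 0.508 ± 0.05 in wild types on starch and 0.293 ± 0.03 on sucrose. In heterozygotes it read 0.396 ± 0.04 on starch and 0.267 ± 0.03 on sucrose. The levels on sucrose lay close together, and those on starch differed by more. The diet change was -0.79 ± 0.20 in wild types and -0.57 ± 0.20 in heterozygotes, sizes that 1.4% and 2.66% of the probes of its quartile reached. By the probes with the strongest signal, no neighbour of the 6 passed 2-fold for diet. Of all genes, 1.41% did in wild types and 1.63% in heterozygotes. The dim Btbd9 probe changed by -1.07 in wild types.

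Between genotypes Pim1 changed by -0.36 ± 0.20 on starch and by -0.14 ± 0.20 on sucrose, and the second of these is within the spot error. Between heterozygous sucrose and wild-type starch it changed by -0.93 ± 0.20, short of 2-fold, a threshold that none of the 6 neighbours and 1.94% of all genes reached.

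Pim1 is known as a gene induced by cytokine signalling through JAK and STAT. Stat3 and Jak2, named after their values were seen, were lower on sucrose too, by small amounts. Stat3 changed by -0.27 in wild types and -0.18 in heterozygotes, and Jak2 by -0.36 and -0.27. Myc, listed with them as a partner of Pim1, did not follow, with -0.04 and 0.13. Of the other Pim kinases, Pim2 read between 0.264 and 0.283 on all arrays. Pim3 changed by -0.38 for diet in wild types and by -0.03 in heterozygotes.

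Of the genes of the immediate early response (Fos, Egr1, Arc and others), 8 of 9 were lower on sucrose in wild types, the exception being Dusp1 (0.40), and 9 of 9 in heterozygotes. Their summed level over 9 of 9 genes was 59.4 on wild-type starch, 41.8 on wild-type sucrose, 68.2 on heterozygous starch and 37.5 on heterozygous sucrose. Unlike Pim1, this sum was higher on heterozygous than on wild-type starch. Blood transcripts (haemoglobins and Alas2) had summed levels of 277, 135, 235 and 152 over 6 of 6 genes, in the same order of arrays. As with Pim1, wild-type starch was highest and heterozygous starch next. Unlike Pim1, all 6 blood transcripts were higher in heterozygotes than in wild types on sucrose. Endothelial markers, measured by 5 of 5 genes, summed to 22.8 and 22.7 on the sucrose arrays and to 31.0 and 27.7 on the starch arrays. Ly6c1 made up most of each sum, and 2 of the 5 were higher on sucrose in each genotype. The part of these genes in the Pim1 difference was not tested, and in pooled tissue fewer cells of a type and less RNA per cell cannot be told apart.

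**Figure D2:**
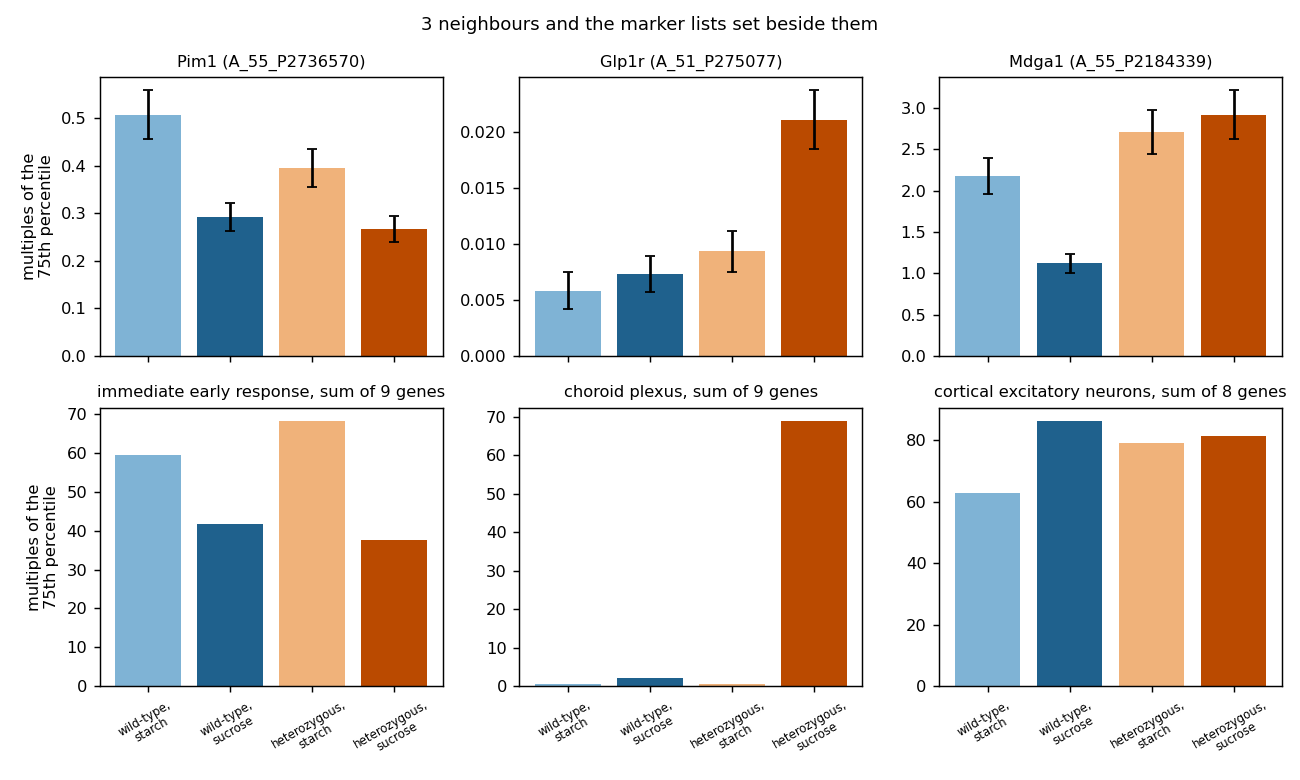
Upper panels show levels of Pim1, Glp1r and the Mdga1 probe A_55_P2184339 by array, as multiples of the 75th percentile with the spot error; lower panels show summed levels of the marker lists set beside them. Choroid plexus genes sum to 68.9 on the heterozygous sucrose array and to 2.05 or less on the others, and Glp1r is highest on the same array.

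Glp1r, the only receptor among the neighbours, gave signals near background. Its probe, 340 kb from the Glo1 probes, read 0.00582 ± 0.0017 on wild-type starch, where it was not well above background. It read 0.00732 ± 0.0016 on wild-type sucrose, 0.00937 ± 0.0018 on heterozygous starch and 0.0211 ± 0.0026 on heterozygous sucrose. Only the last stood apart from each of the others by more than 2 spot errors. On sucrose it was 2.88-fold higher in heterozygotes than in wild types (1.53 ± 0.37). In heterozygotes it was 2.25-fold higher on sucrose than on starch (1.17 ± 0.34). Against the lowest signal well above background on the wild-type starch array, the heterozygous sucrose level was 3.23-fold higher and the heterozygous starch level 1.43-fold higher. Both figures leave out the spot error. By the probe's own readings the genotype change on starch was 0.69 ± 0.50.

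The heterozygous sucrose array also carried choroid plexus transcripts at a far higher level than the others. Of 10 markers, 9 were measured on all arrays. Their summed level was 0.613 on wild-type starch, 2.05 on wild-type sucrose, 0.536 on heterozygous starch and 68.9 on heterozygous sucrose. These sums add signals of unlike probes, and Ttr, a carrier of thyroid hormone, read 58.7 on the last array. Of the 9, 8 were more than 2-fold higher there than on wild-type sucrose. Glp2r is the receptor of glucagon-like peptide 2. Of 22 measured family members of the neighbours elsewhere in the genome, it alone passed 2-fold in a pairwise comparison. Glp2r did so for diet in heterozygotes and for heterozygous sucrose against wild-type starch. In each this is 4.55% of the 22, beside 1.63% and 1.94% of all genes. It read 0.172, 0.288, 0.159 and 0.383 on wild-type starch, wild-type sucrose, heterozygous starch and heterozygous sucrose. It was thus higher on both sucrose arrays, by 0.74 in wild types and 1.27 in heterozygotes. Gipr and Gcgr, the related receptors, differed by 0.32 and 0.21 between genotypes on sucrose. The part of the choroid plexus transcripts in the signals of Glp1r, Glp2r and Mdga1 on this array was not tested.

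By their probes with the strongest signal, Abcg1, Zfand3, Btbd9 and Rnf8 did not pass 2-fold in any comparison. Abcg1 (A_51_P222467, chr17:31252580-31252639, 522 kb from the Glo1 probes) read 4.18, 4.20, 4.46 and 4.52 on wild-type starch, wild-type sucrose, heterozygous starch and heterozygous sucrose. The 4 values span 0.11 on the log2 scale, which is within the spot error of a single pair. The heterozygous arrays were both slightly above the wild-type ones, by 0.09 ± 0.20 and 0.10 ± 0.20. Microglia markers summed to between 27.2 and 29.4 over 5 of 5 genes. Abca1, the partner of Abcg1 in cholesterol export, differed by 0.00 and 0.25 between genotypes on starch and sucrose.

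Zfand3 was measured by 3 probes. The probe with the ATTAAA motif (chr17:30345295-30345353) read 1.84 and 1.62 in wild types fed starch or sucrose, and 1.81 and 1.60 in heterozygotes. Its genotype changes were -0.02 and -0.01. Its diet changes, -0.19 ± 0.20 in wild types and -0.18 ± 0.20 in heterozygotes, lay within the spot error. Both exceeded the SD of 0.07 of repeated spots. A probe whose placement spans 17857 bases (A_51_P225873) gave -0.30 and -0.26 for diet, and the third probe (A_55_P1961853) gave 0.01 and 0.02. The Zfand3 probes thus differed among themselves more for diet than for genotype.

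Btbd9 is the gene nearest to Glo1 in the set, with probes 79.4 to 378 kb from the Glo1 probes. The probe with the AATAAA motif (chr17:30352469-30352528) read 6.85, 6.98, 6.95 and 7.65 on wild-type starch, wild-type sucrose, heterozygous starch and heterozygous sucrose. Its genotype changes were 0.02 ± 0.20 and 0.13 ± 0.20. The probe nearest to Glo1 (A_55_P2040539, chr17:30650514-30650573) gave -0.02 ± 0.20 on starch and 0.32 ± 0.20 on sucrose. On neither diet was a Btbd9 probe of middle or high signal lower in heterozygotes by more than the spot error.

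Another Btbd9 probe (A_55_P2040534, chr17:30551528-30551587), designed on a testis cDNA and in the lowest quartile of signal, behaved differently. It read 0.0615 ± 0.006 on wild-type starch, and 0.0293, 0.0290 and 0.0371 on wild-type sucrose, heterozygous starch and heterozygous sucrose. Wild-type starch was thus the high array. Heterozygous sucrose lay above wild-type sucrose by 0.34 ± 0.22 and above heterozygous starch by 0.35 ± 0.23. Its genotype change was -1.08 ± 0.22 on starch and 0.34 ± 0.22 on sucrose, and 2.19% and 28.6% of the probes of that quartile changed by as much.

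Rnf8 was measured by 3 probes between 951 and 974 kb from the Glo1 probes. The one with the strongest signal (A_55_P2051727, chr17:29778519-29778578) read 3.89, 4.66, 3.99 and 4.24 on wild-type starch, wild-type sucrose, heterozygous starch and heterozygous sucrose. Wild-type sucrose was highest, by 0.26 ± 0.20 over wild-type starch. The genotype changes of the 3 probes ran from -0.26 to 0.04 on starch and from -0.41 to -0.14 on sucrose. All 3 were lower in heterozygotes on sucrose, and the largest of these changes came from the dimmest probe (A_55_P2611454, 0.106 to 0.0795). Mdc1, Ube2n and Trp53bp1, which act with Rnf8 at DNA breaks, changed by 0.09, -0.08 and -0.06 in that comparison.

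**Figure D3:**
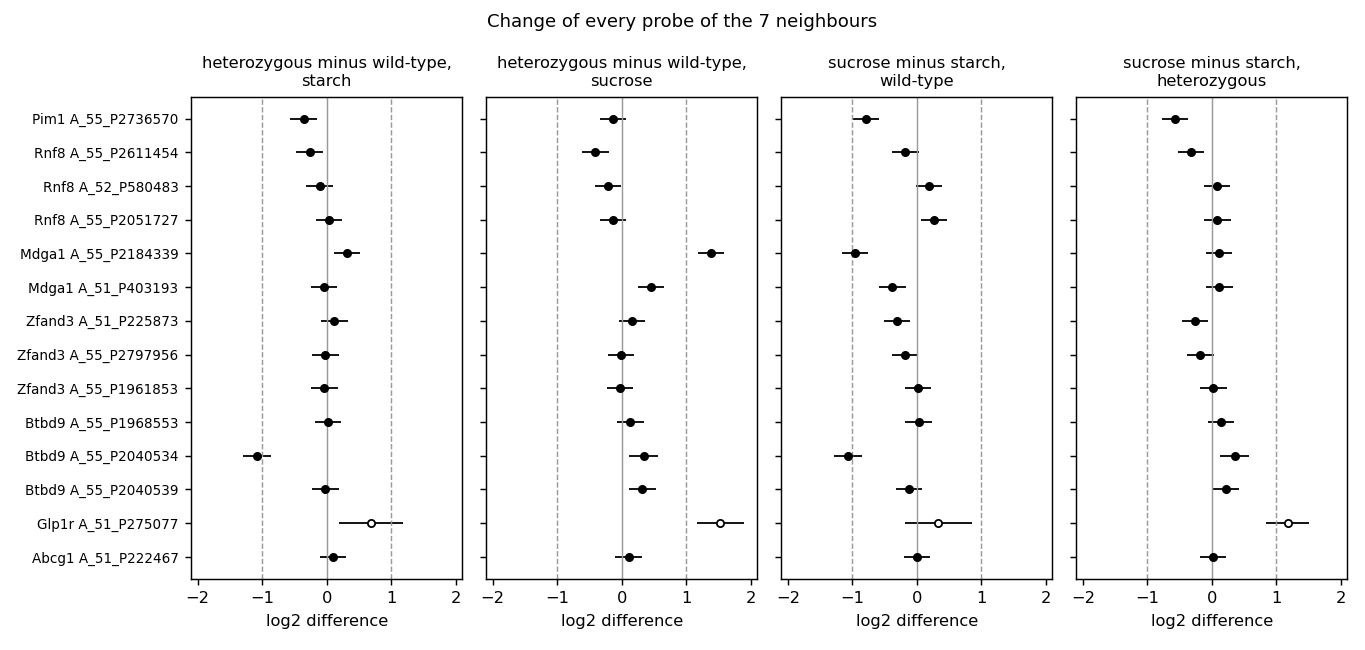
Log2 differences of all 14 probes in the 4 comparisons of diet and genotype, with the spot error of a pair of arrays; dashed lines mark 2-fold, and the open symbol is Glp1r, which was not well above background on wild-type starch. Mdga1 A_55_P2184339 (1.39) and Glp1r (1.53) lie past 2-fold for genotype on sucrose, and Pim1 lies below 0 in all 4 panels.

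The 13 measured probes were also counted by changes beyond 2 spot errors. For genotype on starch this was 1 of 13 probes (7.69%), the dim Btbd9 probe, beside 9.92% of all 42094 probes. For genotype on sucrose it was 2 (15.4%), both of Mdga1, beside 6.94% of all probes. For diet it was 3 in wild types (23.1%; Mdga1, Pim1 and the dim Btbd9 probe) beside 11.4%, and 1 in heterozygotes (7.69%; Pim1) beside 7.96%. For heterozygous sucrose against wild-type starch it was 4 (30.8%) beside 13.5%. For the interaction, the diet change in heterozygotes minus that in wild types, it was 2 (15.4%) beside 7.27%. The comparisons share the same 4 arrays and the same few probes recur, so these counts are not independent. The interaction of Mdga1 was 1.07 ± 0.29, and that of the dim Btbd9 probe was 1.42 ± 0.31. By the probe with the strongest signal of each gene, 1 of 6 neighbours (Mdga1) was past 1 in size, beside 2.81% of all genes.

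The additive limma fit of diet and genotype, which leaves 1 residual degree of freedom and takes the interaction as error, called none of 42094 probes for either factor (0% of all probes). Of these, 2704 had an unadjusted p under 0.05 for genotype and 3704 for diet. The Benjamini-Hochberg adjusted p from limma of the 13 probes ran from 0.733 to 0.965 for genotype and from 0.532 to 0.978 for diet. Pim1 had the lowest value for diet, with 0.532 at an additive change of -0.68. The same fit gave the Glo1 probes an adjusted p of 0.733 for genotype. On simulated arrays it recovered 0% of 2-fold and 80% of 4-fold planted genotype changes.

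Other transcripts around Glo1 were examined in the same way. Of the 53 other genes or transcripts within 1.5 Mb of the Glo1 probes, 1 was 2-fold higher and 1 was 2-fold lower in heterozygotes on starch, and 2 were higher and 1 was lower on sucrose. These are 3.77% and 5.66% of the 53, beside 0.916% and 1.57% of all genes. With normexp background correction the counts, neighbours included, went from 2 to 0 on starch and from 4 to 1 on sucrose. Of the 53, 36 were below 0 on starch and 35 on sucrose (67.9% and 66%), beside 55.5% and 55% of all genes. The same shares were 61.7% and 56.2% for the 559 genes lying 1.5 to 10 Mb away, and 58.8% and 64.7% for the 34 window genes with a RefSeq symbol. Median genotype changes of the 9 genes at up to 0.5 Mb, the 17 at 0.5 to 1 Mb and the 33 at 1 to 1.5 Mb, neighbours included, were -0.02, -0.09 and -0.11 on starch and 0.13, -0.04 and -0.11 on sucrose. Of the 33 farthest, 24 were below 0 on each diet. The genes 1.5 to 10 Mb away had medians of -0.07 and -0.02.

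The transcripts past 2-fold in a genotype comparison lay on both sides of Glo1. Umodl1, 417 kb away on the Glp1r side, read 0.0162, 0.0258, 0.0222 and 0.0715 on wild-type starch, wild-type sucrose, heterozygous starch and heterozygous sucrose, a genotype change of 1.47 ± 0.22 on sucrose. Like Glp1r it was highest on the array with choroid plexus transcripts. Pi16, a secreted peptidase inhibitor, changed by 0.54 ± 0.21 on starch and 1.02 ± 0.21 on sucrose. Gm26885 changed by 0.81 on starch and -1.04 on sucrose, and Gm30509 by 1.22 and -0.11. Gm8437 read 0.0218 in wild types and 0.0109 in heterozygotes on starch. These 3 transcripts and Umodl1 lay in the lowest quartile of signal. Among window genes measured on all arrays, Umodl1, Mdga1 and Pi16 had the highest means of both genotype changes. This ranking, also used for the lowest means, leaves out Glp1r.

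The transcripts with the lowest means were an intergenic RNA 1314 kb away (A_30_P01029079, -0.79 and -0.70 on starch and sucrose), Gm8437 and 0710001D07Rik. The last is the measured transcript nearest to Glo1, with its probe (A_52_P249687, chr17:30713998-30714057) 15.9 kb from the Glo1 probes on the Btbd9 side. It read 0.157 and 0.174 in wild types fed starch or sucrose, and 0.109 and 0.123 in heterozygotes, so that both heterozygous arrays lay below both wild-type arrays, as for Glo1. The changes were -0.52 ± 0.21 and -0.49 ± 0.21, sizes that 6.26% and 6.16% of the probes of its quartile reached. On the other side, 1700097N02Rik, 28.3 kb away and named after its values were seen, changed by -0.49 ± 0.20 on starch and by -0.09 ± 0.20 on sucrose.

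**Figure D4:**
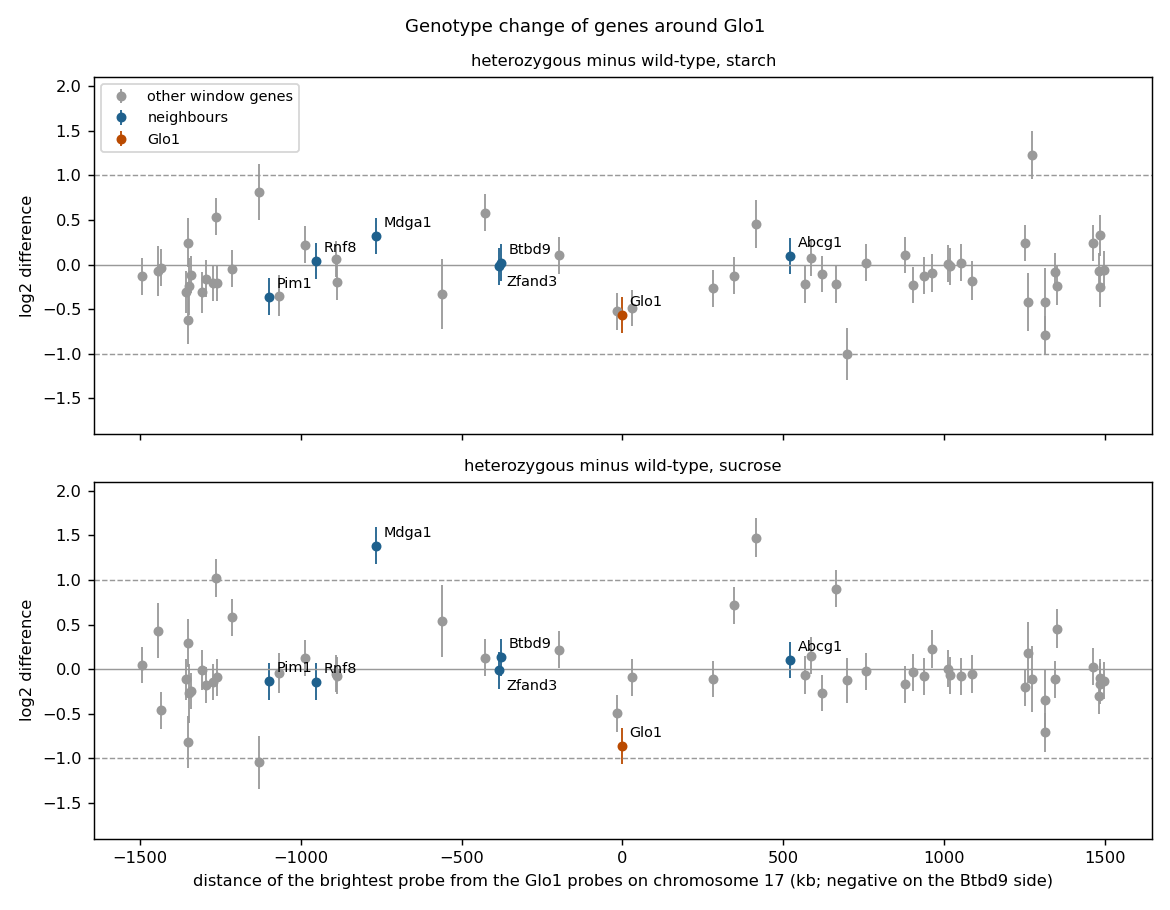
Genotype change on starch and on sucrose against distance from the Glo1 probes, for the probe with the strongest signal of each gene measured on all arrays within 1.5 Mb; bars are spot errors and dashed lines mark 2-fold. Glo1 lies at -0.56 and -0.86 with its nearest measured transcript beside it, and Mdga1 lies at 1.39 on sucrose while Abcg1, Zfand3, Btbd9 and Rnf8 stay near 0. Glp1r is not plotted, since it was not well above background on all arrays.

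The 17 partners of the neighbours included Cul3, Nlgn2, Ube2n, Gcg, Stat3 and the liver X receptor genes Nr1h2 and Nr1h3. None passed 2-fold in any of the pairwise comparisons, in which 0.916% to 1.94% of all genes did. The median genotype change of the partners was -0.04 on starch and -0.004 on sucrose. Cdkn1a, a cell cycle inhibitor 1493 kb from the Glo1 probes and named after its values were seen, read 1.01 and 0.922 on wild-type and heterozygous starch and 0.542 and 0.561 on wild-type and heterozygous sucrose. Its order by diet was that of Pim1, with changes of -0.90 in wild types and -0.72 in heterozygotes.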

How the data were processed

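RNA pools of 3 mice were labelled with Cy3 from 200 ng and hybridised to 4 arrays, 1 per group. The deposited intensity values came from Agilent Feature Extraction 11.5.1.1, which per the file headers subtracted background with spatial detrending and applied multiplicative detrending within the array. The authors' deposited ratio table, in which each value is the processed signal over the array's 75th percentile, was an alternative. Probe positions are on mm9, per the file headers.

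Here, log2 of the processed signal was scaled to each array's 75th percentile over the 59305 non-control spots. Outlier spots were left out and repeated spots averaged. Probes well above background on all 4 arrays were compared, and a gene was represented by its probe with the highest mean signal. Changes were called at 2-fold. limma 3.58.1 in R 4.3.3 fitted diet and genotype with Benjamini-Hochberg adjustment at 0.05, tested on simulated data. Repeated spots and spike-in probes gave the spread between spots. The members and lists were chosen with earlier results of these data known. The text names all members, Glo1, window transcripts past 2-fold between genotypes or among the 3 highest and 3 lowest means of both genotype changes, related genes past 2-fold and the genes most alike in pattern. Others are marked as named after their values were seen or are preset list members. Alternatives were median scaling, the deposited ratios, normexp with an offset of 50, quantile and cyclic loess normalisation, the mean over probes, no filter, outliers kept and other window widths. The number of arrays limits the precision.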

Additional observations from a re-analysis of the deposited data

Results flagged for a closer look

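The diet change went in opposite directions in the genotypes, with an interaction past 1 in size, for 2 probes. For Mdga1 A_55_P2184339 it was -0.96 in wild types and 0.11 in heterozygotes, an interaction of 1.07, and the heterozygous change lay within the spot error. For the dim Btbd9 probe A_55_P2040534 it was -1.07 and 0.35, and the genotype change of the same probe was -1.08 on starch and 0.34 on sucrose, an interaction of 1.42. With 1 array per group the difference was not tested.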

How the results depend on the processing

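No paired analysis was possible because each group had 1 array. No replicate could be left out for the same reason. Many values of single genes could hardly move: the deposited ratios used the same signals and scaling, and Pim1 and Abcg1 had a single probe each. Their count is therefore no measure of stability. Of 336 values of single genes under alternatives, 318 moved by less than the spread of repeated spots, 18 by more and no called change turned its sign. Uncalled values that turned their sign by more than that spread with the mean over probes were Btbd9 for genotype on starch (0.02 to -0.36), for diet in wild types (0.03 to -0.39) and for heterozygous sucrose against wild-type starch (0.16 to -0.13), and Rnf8 for genotype on starch (0.04 to -0.11), for diet in heterozygotes (0.08 to -0.05) and for heterozygous sucrose against wild-type starch (0.12 to -0.17). With the mean over probes, the number of neighbours past 2-fold was 0 for genotype on sucrose and 0 for the interaction, and the median change of the neighbours was -0.27 for diet in wild types (-0.09 in the reported setting) and -0.12 for heterozygous sucrose against wild-type starch (0.12). With no filter on dim probes, Glp1r joined the counts, giving 2 neighbours for genotype on sucrose, 1 for diet in heterozygotes and 1 for heterozygous sucrose against wild-type starch, and a diet median in wild types of 0.0064. Without the filter the window genes past 2-fold, neighbours included, were 5 and 8 for genotype on starch and sucrose (2 and 4 reported), 1 and 8 for diet in wild types and heterozygotes (0 and 4), and 8 for heterozygous sucrose against wild-type starch (3). Under normexp they were 0 and 1 for genotype, 1 for diet in heterozygotes, 0 for heterozygous sucrose against wild-type starch and 1 for the interaction (6). In a window of 1 Mb they were 1 and 2 for genotype and 3 for the interaction. limma called 1 probe for diet with a trended prior variance and 28 under normexp, and 0 for genotype in every setting run. The cause of these moves was not tested, except that filter and window change which genes count. The Pim1 diet change ran from -0.81 to -0.70 in wild types and from -0.60 to -0.48 in heterozygotes over the alternatives.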
